A study of Mus musculus with 10 samples.

Results

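A set of 38 S phase and mitosis genes in general use as measures of proliferation was examined in mouse pancreas with targeted MST1 and MST2, the kinases at the head of the Hippo pathway, and in control pancreas. The genes were taken by gene symbol, with clusters of probes that carry 1 symbol and the brightest cluster of a gene, and 37 of the 38 were measured among 19938 genes in all. The cyclin B gene Ccnb1 had no cluster assigned to it alone and was not analysed here. Cell division is carried by genes that are switched on in an ordered way: loading factors place the MCM helicase on DNA in G1, replication enzymes copy the DNA in S phase, and cyclins, kinases, kinetochore proteins and motors then drive mitosis. E2F factors turn on the replication genes at the entry to S phase, and the DREAM and MuvB complexes, which act through the CHR promoter element together with B-MYB and FOXM1, time the mitotic genes. Most cells of the grown pancreas divide rarely, and in other tissues loss of the Hippo kinases is known to raise division through the coactivators YAP and TAZ.

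RNA of whole pancreas was measured on 10 Affymetrix Mouse Gene 1.0 ST arrays, from a group called DKO (n = 5) and a control group (n = 5). By its labels the DKO group carried the genotype PDX1Cre, Mst1-/-, Mst2L/L, so that MST1 was absent through a null allele not limited to a tissue, and MST2 was deleted, by way of its floxed allele, in the pancreatic lineage where the Pdx1 promoter drives Cre recombinase. The genes of MST1 and MST2 are Stk4 and Stk3. The control group is described by the word control alone, and both groups shared a mixed strain background. The labels used here give neither age nor sex, and whether each array is a separate animal is not stated, so the p-values cover the variation among these samples alone, which may be technical. By the female-specific RNA Xist, high on 2 DKO and 3 control arrays, each group held samples of both sexes. In RNA of a whole tissue, more dividing cells and more of a transcript per dividing cell cannot be told apart.

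The targeted genes gave no check of the labels. Stk4 read 5.07 to 5.21 in DKO and 5.01 to 5.23 in control on the log2 scale, a difference of -0.02 ± 0.06 (SE, limma adjusted p = 0.884), from a dim cluster at the 14.2 percentile of all genes, and Stk3 had no cluster of its own and was not analysed here. Array medians over all clusters were 7.12 to 7.14 in DKO and 7.14 to 7.15 in control on the log2 scale. Over the tested genes alone they were 7.56 to 7.63 in DKO and 7.55 to 7.59 in control. The values were used without a further scaling of the arrays. Over all genes 2.44% passed limma's test at an adjusted p of 0.05 (487 of 19938, 414 higher and 73 lower in DKO). DKO replicate 1 stood apart in 19 hepatocyte markers, with a mean level of 10.62 against 6.42 to 7.14 on the other DKO arrays and 6.53 to 7.18 on the control arrays. Acinar markers (11 genes) averaged 11.67 to 12.15 on DKO arrays and 12.18 to 12.32 on control arrays. Their log2 differences ran from -0.57 to -0.01, and 1 passed (Rbpjl, -0.45 ± 0.09 SE, limma adjusted p = 0.0225). Of 11 duct markers 4 passed as higher in DKO (Krt7, Cldn4, Krt19 and Krt8) and 0 passed as lower. The duct differences ran from -0.34 to 1.37, with 7 of the 11 above 0. Control replicate 4 stood apart in the proliferation genes themselves, and results are given with and without it.

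None of the 37 proliferation genes passed the test between DKO and control pancreas. Most were not dim: 34 of 37 had a mean level over the 10 arrays above the median of all genes. Their means stood at percentiles from 37.3 to 97.9 of all genes. By limma, 0 of 37 passed an adjusted p of 0.05, against 2.44% of all genes. At an unadjusted p of 0.05 there were also 0 of 37, against 14.8% of all genes. The lowest adjusted p among them was 0.411, for Rrm2. In DKO 19 members lay above and 18 below the control mean, with log2 differences between -0.32 and 0.24 and a median of 0.00235, against a median of -0.00639 over all genes tested. The groups overlapped in every one of the 37, and DKO and control were fully separate in 4.8% of all genes. At shares of 2.44% and 4.8% few of 37 genes would pass or be separate. Those 2 counts therefore do not set the members apart from other genes. With all 10 arrays, the 95% confidence intervals excluded a change of 2-fold in either direction for 37 of 37 members. They excluded a change of 1.5-fold for 33 of 37. The 4 intervals that reached past 1.5-fold were those of Rrm2 (0.619-fold to 1.04-fold), Bub1 (0.816-fold to 1.70-fold), Cenpe (0.841-fold to 1.63-fold) and Ttk (0.793-fold to 1.51-fold). Intervals without control replicate 4 were not counted, and differences moved there. Rrm2 went from -0.32 ± 0.17 to -0.17 ± 0.13, and Kif11 from 0.08 ± 0.23 to 0.29 ± 0.16 (log2, SE).

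**Figure D1:**
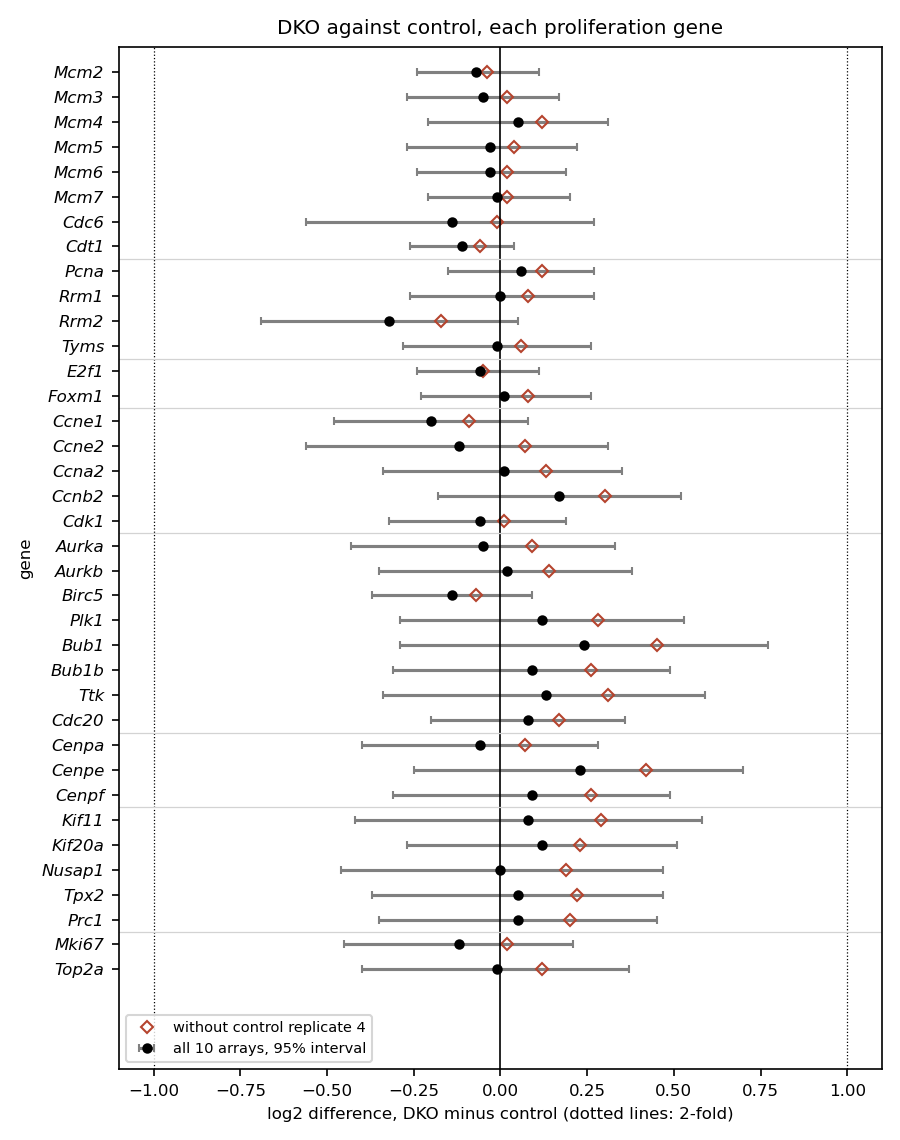
Log2 difference of each of the 37 genes, DKO minus control (horizontal axis, log2), with points for the estimate from all 10 arrays, bars for its 95% interval from limma, and open diamonds for the estimate without control replicate 4. Every interval contains 0 and lies between -0.69 and 0.77.

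The start of the transcript is where the factors that time these genes act, and 30 of the 37 members had a promoter window in the RefSeq table (GRCm38.p6, 250 bases before to 50 bases after the annotated start, first listed start of a gene). Motifs were searched as exact letters on both strands. The CHR element, TTTGAA or TTTAAA, occurred in 19 of 30 member windows (63.3%), against 27.8% of all 27025 windows and 24% of the 15614 windows of tested genes. The letters CCAAT, the box bound by NF-Y, occurred in 23 of 30 (76.7%), against 37.9% of all windows. An E2F element, TTTCCCGC, TTTGGCGC or TTTCGCGC, occurred in 7 of 30 (23.3%), against 1.91% of all windows. The letters GGAATG, the core bound by TEAD factors, through which YAP and TAZ act, occurred in 2 of 30 (Mcm3 and Nusap1, 6.67%), against 14.6% of all windows. By role, the E2F letters were in 6 of 11 windows of licensing and DNA synthesis genes and in 0 of 13 of the mitotic kinase, kinetochore and spindle genes, while the CHR letters were in 3 of 11 and 11 of 13 of them. A match describes the letters in this window and is not evidence of binding.

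The 150 bases before the start of 5 members are shown as examples of where these letters stand in a replication gene (Mcm6) and in genes of mitosis. They run 5′ to 3′ on the strand of the gene, with the CHR, CCAAT and E2F letters in capitals (in either orientation). Mcm6, a helicase subunit, had 3 E2F matches, of which 2 overlapped in one run, and 2 CCAAT matches, while Cdk1, the mitotic kinase, had all 3 kinds. Ccnb2, the partner of Cdk1, had 3 CCAAT matches here and its 2 CHR matches outside the stretch shown, at -167 to -162 and at 5 to 10 from the start. In the stretch shown, the mitotic motor gene Kif11 and the topoisomerase gene Top2a had 1 CHR match each beside CCAAT. Top2a had a further CHR match outside it, at -179 to -174.
Mcm6, chr1:128359706-128359855, minus strand: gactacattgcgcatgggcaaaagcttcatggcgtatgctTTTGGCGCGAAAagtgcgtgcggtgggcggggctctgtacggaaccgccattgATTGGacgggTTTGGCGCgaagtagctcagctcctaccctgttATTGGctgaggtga
Cdk1, chr10:69352913-69353062, minus strand: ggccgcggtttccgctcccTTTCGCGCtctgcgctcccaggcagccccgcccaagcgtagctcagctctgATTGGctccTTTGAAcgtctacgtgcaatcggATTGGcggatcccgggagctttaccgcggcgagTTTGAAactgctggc
Ccnb2, chr9:70421555-70421704, minus strand: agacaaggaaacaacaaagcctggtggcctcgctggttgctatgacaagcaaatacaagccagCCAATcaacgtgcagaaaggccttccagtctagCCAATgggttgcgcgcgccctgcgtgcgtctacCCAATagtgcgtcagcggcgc
Kif11, chr19:37376232-37376381, plus strand: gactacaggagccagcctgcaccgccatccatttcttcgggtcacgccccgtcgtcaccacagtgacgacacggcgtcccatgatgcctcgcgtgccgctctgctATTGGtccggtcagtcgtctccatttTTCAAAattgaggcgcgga
Top2a, chr11:99024190-99024339, minus strand: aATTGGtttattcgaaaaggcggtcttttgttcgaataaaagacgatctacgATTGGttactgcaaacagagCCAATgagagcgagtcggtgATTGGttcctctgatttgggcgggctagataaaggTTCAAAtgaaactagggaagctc

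Mki67, whose protein coats mitotic chromosomes and is the usual histological mark of dividing cells, measured 10.57, 10.90, 10.54, 10.42 and 10.81 (log2 level) in DKO replicates 1 to 5, against 10.67, 10.77, 10.63, 11.31 and 10.45 in control replicates 1 to 5. The groups overlapped, and the top value belonged to control replicate 4. The mean was 10.65 ± 0.20 in DKO and 10.77 ± 0.33 in control (SD, n = 5 each), a log2 difference of -0.12 ± 0.15 (SE, limma adjusted p = 0.74). Top2a, the topoisomerase that untangles replicated chromosomes, read 9.59, 9.95, 9.50, 9.24 and 9.92 in DKO, against 9.40, 9.74, 9.41, 10.18 and 9.54 in control. Its means were 9.64 in DKO and 9.65 in control. A second, dim Top2a cluster averaged 4.05 in DKO and 4.11 in control and was not used.

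Licensing genes load the replicative helicase. The 6 helicase subunit genes Mcm2 to Mcm7 had log2 differences from -0.07 (Mcm2) to 0.05 (Mcm4) and SEs of 0.08 to 0.12. Cdt1, a loading factor that is degraded once S phase begins, had the smallest p of this role. It stood at 8.56, 8.50, 8.40, 8.49 and 8.59 in DKO, against 8.62, 8.49, 8.53, 8.82 and 8.64 in control, a difference of -0.11 ± 0.07 (SE, limma adjusted p = 0.477). Cdc6, the other loading factor, varied more, at 7.17, 7.52, 6.97, 6.80 and 7.48 in DKO against 7.13, 6.97, 7.17, 7.88 and 7.51 in control (difference -0.14 ± 0.19 SE). DKO replicate 4 was the lowest of the 10 arrays and control replicate 4 the highest.

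Among DNA synthesis genes, Rrm2, the S phase subunit of ribonucleotide reductase, had the largest difference of all 37 members. It read 9.17, 9.31, 8.92, 8.80 and 9.44 in DKO, against 9.30, 9.29, 9.43, 10.04 and 9.19 in control. Both lowest arrays were DKO (replicates 3 and 4), and control replicate 4 lay above all others. The difference was -0.32 ± 0.17 (SE, limma adjusted p = 0.411), and -0.17 ± 0.13 without control replicate 4. Pcna, the sliding clamp of the DNA polymerases, read 11.32, 11.37, 11.12, 11.12 and 11.38 in DKO and 11.23, 11.04, 11.01, 11.47 and 11.28 in control, a difference of 0.06 ± 0.10 (SE). Pcna had a second cluster with nearly the same value on every array and group means of 11.26 in DKO and 11.21 in control. The 2 clusters are not taken as separate evidence. Rrm1, the other reductase subunit, and Tyms, thymidylate synthase, differed by 0.00 and -0.01. A Tyms pseudogene, Tyms-ps, has a cluster of its own, and whether its probes share signal with Tyms was not tested.

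The transcription factor genes of the set are E2f1 and Foxm1. E2f1, an activator of replication genes, read 8.59, 8.73, 8.57, 8.42 and 8.81 in DKO against 8.53, 8.67, 8.67, 8.74 and 8.82 in control (difference -0.06 ± 0.08 SE). Foxm1, an activator of mitotic genes, differed by 0.01 ± 0.11 (SE). E2f1 was lowest on DKO replicate 4 and highest on control replicate 5, while Foxm1 was highest on DKO replicate 5 and lowest on control replicate 1.

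Cyclin E starts S phase, cyclin A carries it on, and cyclin B with Cdk1 opens mitosis. Ccne1 read 8.70, 8.59, 8.42, 8.34 and 8.74 in DKO, against 8.71, 8.54, 8.66, 9.21 and 8.67 in control. The 5 control arrays spanned 0.68, and the 5 DKO arrays spanned 0.41. Apart from control replicate 4 the control arrays spanned 0.17. Leaving out the highest control array narrows the control span, so 0.17 and 0.41 are not on equal terms. The difference was -0.20 ± 0.13 (SE, limma adjusted p = 0.494), and -0.09 ± 0.09 without control replicate 4. Ccnb2, the measured cyclin B gene, read 10.63, 10.91, 10.68, 10.43 and 10.89 in DKO, against 10.51, 10.64, 10.36, 11.06 and 10.12 in control (difference 0.17 ± 0.16 SE, limma adjusted p = 0.646). Control held both its highest and its lowest value. Ccne2, Ccna2 and Cdk1 differed by -0.12, 0.01 and -0.06.

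**Figure D2:**
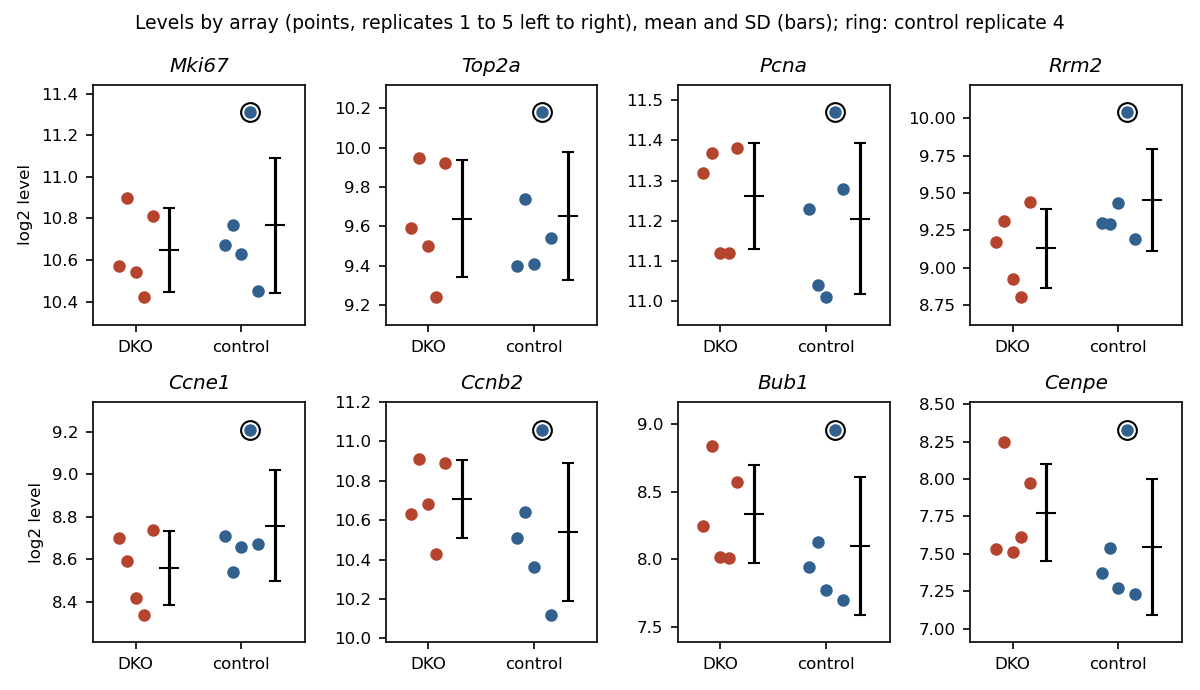
Log2 level (vertical axis) of 8 genes on each array, DKO left and control right, with replicates 1 to 5 from left to right in each group, and bars for the mean and SD (n = 5). The ringed point, control replicate 4, is the highest of the 10 arrays in each of the 8 panels, and the groups overlap in all 8.

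Mitotic kinases and the spindle checkpoint hold the largest positive difference. Bub1, a checkpoint kinase at the kinetochore, read 8.25, 8.84, 8.02, 8.01 and 8.57 in DKO, against 7.94, 8.13, 7.77, 8.96 and 7.70 in control. DKO replicates 2 and 5 and control replicate 4 were high, and the other control arrays were at or below 8.13. The difference was 0.24 ± 0.24 (SE, limma adjusted p = 0.671). Ttk, the MPS1 checkpoint kinase, read 6.66, 7.34, 6.71, 6.61 and 7.16 in DKO against 6.64, 6.78, 6.36, 7.48 and 6.57 in control, with the same arrays high (difference 0.13 ± 0.21 SE). Birc5, survivin, the partner of Aurora B in the chromosomal passenger complex, had a negative difference, at 8.71, 8.53, 8.59, 8.34 and 8.85 in DKO against 8.59, 8.83, 8.63, 9.0 and 8.67 in control (difference -0.14 ± 0.10 SE, limma adjusted p = 0.572). The Aurora kinase genes Aurka and Aurkb, Plk1, Bub1b and Cdc20, an activator of the anaphase-promoting complex, differed by -0.05, 0.02, 0.12, 0.09 and 0.08.

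At the centromere, Cenpe, a kinetochore motor that lines chromosomes up, read 7.53, 8.25, 7.51, 7.61 and 7.97 in DKO, against 7.37, 7.54, 7.27, 8.33 and 7.23 in control. Without control replicate 4, only control replicate 2 overlapped the DKO arrays. The difference was 0.23 ± 0.22 (SE, limma adjusted p = 0.651). The centromeric histone gene Cenpa and the kinetochore gene Cenpf differed by -0.06 and 0.09. 

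Spindle genes build and cross-link the microtubules of mitosis. Kif11, the motor that pushes the poles apart, read 8.87, 9.34, 8.65, 8.72 and 9.19 in DKO, against 8.75, 8.97, 8.38, 9.69 and 8.57 in control (difference 0.08 ± 0.23 SE). Its control values spanned 1.31, the widest range of any member in either group. Nusap1, a spindle microtubule bundling protein, read 9.27, 9.64, 9.09, 9.02 and 9.62 in DKO and 9.22, 9.36, 8.90, 10.08 and 9.06 in control, with equal means of 9.33. Kif20a, a motor of cytokinesis, read 8.17, 8.54, 8.0, 7.80 and 8.60 in DKO against 7.94, 8.24, 7.95, 8.55 and 7.84 in control (difference 0.12 ± 0.18 SE), and DKO held both extremes. Tpx2, an activator of Aurora A, and Prc1, which bundles the central spindle, each differed by 0.05.

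The members stood high together on some arrays and low together on others, in both groups. On DKO replicate 5 and on control replicate 4, 37 of 37 members lay above their own mean over the 10 arrays, and on DKO replicate 4, 0 of 37 did. Control replicate 4 gave the highest value of 30 members, although only 12.5% of all genes were highest there. The others were highest on DKO replicate 5 (4 members) or control replicate 5 (3 members). DKO replicate 4 gave the lowest value of 15 members and control replicate 3 of 11, against 10.9% and 10.2% of all genes. The mean deviation over members was -0.04, 0.22, -0.14, -0.26 and 0.21 in DKO replicates 1 to 5, and -0.12, -0.02, -0.20, 0.46 and -0.11 in control replicates 1 to 5, on the log2 scale. The median deviation over all genes stayed between -0.02 and 0.02 on every array. Each group held arrays with high and arrays with low levels of these genes.

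**Figure D3:**
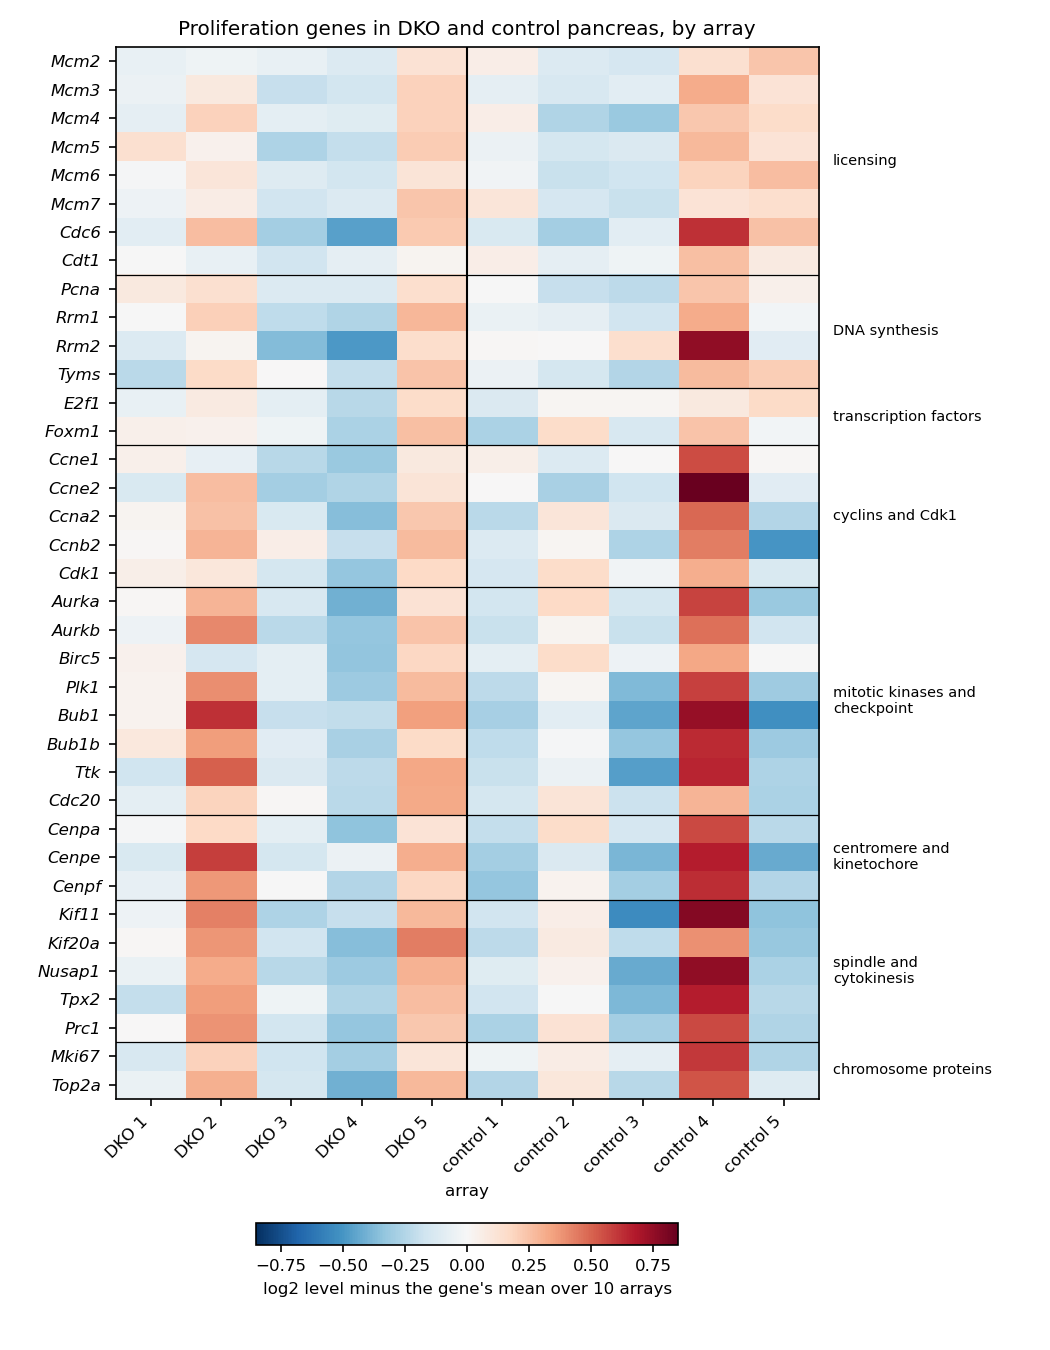
Log2 level of each gene (down the page, by role) minus its own mean over the 10 arrays, for the 5 DKO arrays (left of the line) and the 5 control arrays (right), with red above and blue below that mean. DKO replicate 5 and control replicate 4 are above it in all 37 genes, DKO replicate 2 in 33, and DKO replicate 4 in 0.

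Replication and mitosis genes parted on some arrays. On control replicate 5, 8 of 8 licensing genes lay above their own mean, with a mean deviation of 0.17, and all 16 mitotic kinase, kinetochore and spindle genes lay below theirs, with a mean deviation of -0.28. Mcm2, Mcm6 and E2f1 had their highest value of the series there, and Ccnb2, Bub1, Cdc20 and Cenpe their lowest. On DKO replicate 2 the mitosis genes stood higher than the licensing and DNA synthesis genes (mean deviations 0.35 and 0.10), and on control replicate 4 the values were 0.58 and 0.31. The mitosis genes varied more within both groups. Their median SD was 0.29 in DKO and 0.39 in control, against 0.16 and 0.19 for the licensing and DNA synthesis genes. A larger deviation in the same direction, as on these 2 arrays, is therefore not by itself a parting of the sets. These are descriptions of single arrays, and no group difference rests on them.

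**Figure D4:**
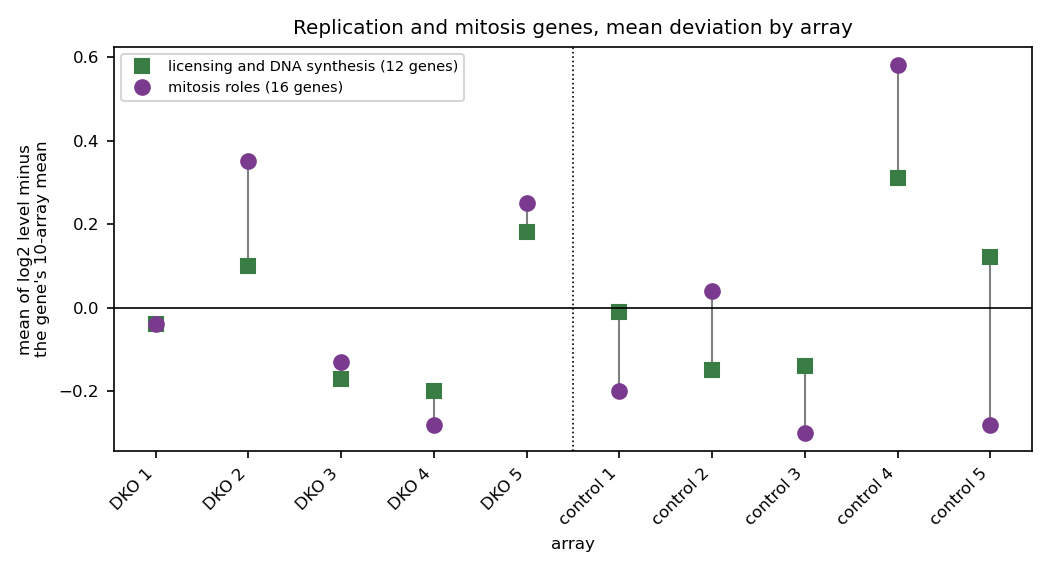
Mean over genes of the log2 level minus the gene's 10-array mean (vertical axis), for 12 licensing and DNA synthesis genes (squares) and 16 mitosis genes (circles) on each DKO array (left) and control array (right). The symbols part most on control replicate 5, at 0.12 and -0.28.

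Within groups, these genes varied more than most. The median SE of a member's difference was 0.16, against 0.0754 over all genes, and the median SD of a member was 0.24 within DKO and 0.31 within control, against 0.12 and 0.11 over all genes. In 30 of 37 members the SD was smaller in DKO than in control, against 41.6% of all genes. That order rested on control replicate 4. Without it the median SD within control was 0.16, and 6 of 37 members had a smaller SD in DKO, against 33.3% of all genes. Leaving out the highest control array tends to lower the control SD, while DKO kept all its arrays. The counts without that array therefore do not compare spread on equal terms. The SDs are given as a description, because the test of spread recovered no changed gene in simulated data.

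**Figure D5:**
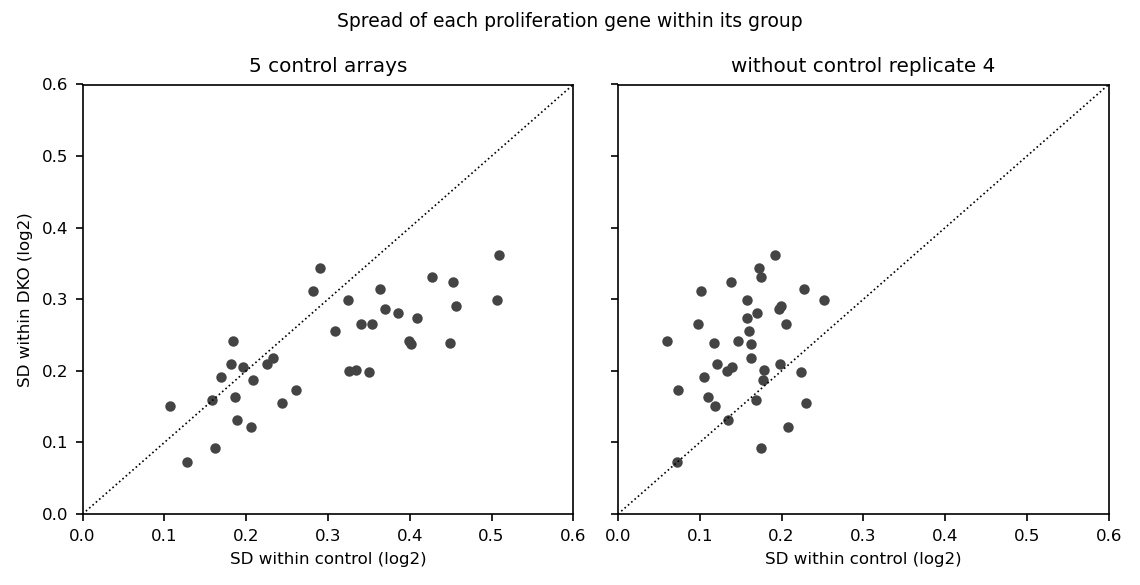
SD of each of the 37 genes within DKO (vertical axis) against its SD within control (horizontal axis), both in log2 units, with all 5 control arrays (left) and without control replicate 4 (right). The dotted line marks equal SDs, and 30 points lie below it on the left and 6 on the right.

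Leaving out control replicate 4 moved the differences upward without a call. That array was set apart by the high values of these same genes, so a shift upward follows from leaving it out. The values below describe how far the results depend on that array and do not test a group difference. The median difference became 0.09, with 30 of 37 members above 0, while the median over all genes was -0.00667. At an unadjusted p of 0.05 there were then 3 members, all higher in DKO, namely Cenpe (0.42 ± 0.15 SE, limma adjusted p = 0.209), Bub1 (0.45 ± 0.17, 0.234) and Ccnb2 (0.30 ± 0.12, 0.265). That is 8.11% of the members, against 16.5% of all genes in this fit and 10.4% of all genes in the higher direction. At an adjusted p of 0.05, 0 of 37 passed, against 1.99% of all genes.

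Red cell markers moved with control replicate 4. Of 8 listed erythroid genes 4 were measured, and these, Alas2, Epb42, Slc4a1 and Klf1, all had their highest value there, and their mean level was 8.51, 8.51, 7.94, 8.58 and 8.50 in DKO replicates 1 to 5 and 9.30, 7.91, 8.34, 9.82 and 8.22 in control replicates 1 to 5. Control replicate 1 was second in these markers and had a mean deviation of the proliferation genes of -0.12. The 14 lymphocyte markers averaged 6.06 to 6.81 on DKO arrays and 6.19 to 6.57 on control arrays, with control replicate 4 at 6.57 the highest control and below DKO replicates 1 and 2. The 15 macrophage and neutrophil markers, at 8.05 to 8.67 in DKO and 8.33 to 8.69 in control, stood at 8.41 on control replicate 4. Other markers were at an extreme on that array too. The 11 acinar markers averaged 12.32 on control replicate 4, the highest of the 10 arrays. The 12 fibroblast and stellate markers averaged 10.47 there, the lowest of the 10 arrays. The part of any of these cell types in the high values of control replicate 4 was not tested.

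Further genes of the cell cycle were read from the same fit, in which 2.44% of all genes passed. Of 73 further mitosis genes 0 were higher and 0 lower in DKO, with a median difference of 0.04, and 57 of them were highest on control replicate 4. Without that array 0 passed, the median was 0.17, and 65 of the 73 lay above 0, against 51 with it. The 2 with the smallest p were Iqgap3 (0.21 ± 0.11 SE, limma adjusted p = 0.389) and Trip13 (0.17 ± 0.09, 0.399). Of 50 further replication genes 0 passed in either direction, with a median of -0.03, and 30 were highest on control replicate 4. Without that array 0 passed, the median was 0.04, and 34 of the 50 lay above 0, against 17 with it. In both lists many genes were highest on control replicate 4, so a shift upward follows from leaving it out. Cdc25a, the phosphatase that activates Cdk2, came closest. It read 10.12, 10.02, 10.15, 10.23 and 10.16 in DKO, against 10.47, 10.29, 10.44, 10.28 and 10.33 in control, with every DKO array below every control array, and its difference of -0.22 ± 0.06 (SE) missed the threshold (limma adjusted p = 0.0729). The flap endonuclease gene Fen1 was next (-0.25 ± 0.09, 0.201).

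Of 28 measured pocket protein and G1 control genes 1 passed (3.57%, against 2.44% of all genes). Ccnd1, cyclin D1, which links growth signals to the entry into the cycle, was lower in DKO, at 10.14, 10.35, 10.21, 10.46 and 10.34 against 10.83, 10.77, 10.63, 10.74 and 11.06 in control. The groups did not overlap, and the difference was -0.51 ± 0.09 (SE, limma adjusted p = 0.0127). The other genes of that list, among them the pocket proteins and the Cdk inhibitors measured here, had differences that did not pass, and the median of the list was 0.03.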

How the data were processed

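Pancreas RNA of 5 DKO and 5 control samples was measured, each on its own Affymetrix Mouse Gene 1.0 ST array. The authors worked in Affymetrix Expression Console, per the submitters' processing notes. For background correction and normalization, the method is not given in the sources used here. Deposited values are log2 levels per transcript cluster (2.79 to 13.94), already on a common scale, and were used as deposited. Of 35556 clusters 21789 had 1 gene symbol, 1621 had several and 12146 had none here. Gene identifiers of 21698 were matched to RefSeq (GRCm38.p6). For 999 genes with several clusters the brightest stood for the gene.

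DKO was compared with control by limma 3.58.1 in R 4.3.3 (lmFit, eBayes, two-sided, 10.96 total degrees of freedom) over all 19938 genes, with Benjamini-Hochberg adjustment. SE and 95% intervals are from that fit, and SDs are over 5 arrays, whose number limits the precision. Members and lists were chosen with earlier results of these data known. Values per array were printed for the smallest p in each role, the 3 largest and smallest differences, the 3 largest SDs in each group, and the usual markers, and further cell cycle lists are named by genes past the test or else the 2 smallest p. Other members are named by role. The fit was tested on simulated data. In simulated data the test of spread (limma on absolute deviations from the group median) recovered no changed gene even at a large difference, so no statement rests on it. Alternatives were other scalings, filters on dim genes, variance models, array weights, averaged clusters, each array left out, the replicate number as a block, Xist as a covariate, and exact permutation.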

Additional observations from a re-analysis of the deposited data

Results flagged for a closer look

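In 4 of 74 groups of 5 arrays (37 genes in each of DKO and control) 1 array lay far from the other 4, and chance alone flags about 1 in 20 groups. All 4 were control replicate 4, high in Rrm2 (10.04, next 9.43), Ccne1 (9.21, next 8.71), Ccne2 (8.07, next 7.23) and Cenpe (8.33, next 7.54). The genes are not independent of each other, since 37 of 37 members stood above their own mean on that array.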

How the results depend on the processing

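Of the 37 members 0 passed limma's adjusted p of 0.05 under any of the 20 alternatives, with a lowest adjusted p of 0.201 (quantile normalization again). Of the 37 differences 11 changed sign without control replicate 4 and 10 without control replicate 5. The median difference ranged from -0.07 (without DKO replicate 5) to 0.09 (without control replicate 4). Members above 0 numbered 19 as reported, 12 after quantile normalization and 14 after subtraction of array medians. At an unadjusted p of 0.05 there were 2 members (Cdt1 and Rrm2) under each of those 2 scalings and 1 (Rrm2) without DKO replicate 5. In the fit as reported 14.8% of all genes reached that threshold, and their share under these alternatives is not given here. These few members are therefore not read as a result.

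The 487 genes called over the whole table became 298 with no moderation of the variance and 178 with the replicate block. Leaving out 1 array gave 260 (without control replicate 3) to 433 (without DKO replicate 3), and also 268 without control replicate 2, 303 without DKO replicate 5, 316 without DKO replicate 1 and 324 without DKO replicate 4. The split was 414 higher and 73 lower as reported, 321 and 125 after quantile normalization, and 271 and 103 after subtraction of medians. The cause of these differences was not tested.

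Replicate numbers do not pair the samples by the labels, and deviations of same-numbered arrays correlated at -0.267, -0.203, 0.29, -0.223 and 0.207. With the replicate block the Ccnd1 difference stayed at -0.51 with an adjusted p of 0.0512. Under the other 19 alternatives Ccnd1 passed. Cdc25a passed under 2, quantile normalization (adjusted p = 0.029) and the filter that left out the dimmest 50% of genes (0.0462). Its highest adjusted p was 0.213.

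The test of spread called 0 genes as reported (limma, 155 at an unadjusted p of 0.05, of which 0 were members), and 0 to 4 when 1 array was left out, the 4 without control replicate 5. That test recovered no changed gene in simulated data, so nothing about spread is concluded from these counts. With 5 arrays a group, intervals reached past 1.5-fold for 4 members, and changes within the intervals were not detectable here.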

Other observations

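A pair of further members of the G1 control list, named after their values were seen, sat below the threshold on the other side from Ccnd1. Ccnd2, cyclin D2, averaged 11.86 in DKO and 11.56 in control, a log2 difference of 0.30 ± 0.08 (SE, limma adjusted p = 0.0861). Cdkn2b, the Cdk4 and Cdk6 inhibitor p15, averaged 7.55 in DKO and 7.18 in control (0.38 ± 0.13, 0.194). Neither passed.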
